A study of Mus musculus with 15 samples.

Results

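The 9 ligand genes of the tumour necrosis factor (TNF) superfamily described here are Lta, Ltb, Tnf, Tnfsf4, Tnfsf8, Tnfsf10, Tnfsf11, Tnfsf14 and Cd40lg. They were chosen by name, through their Entrez gene identifiers, out of 22797 genes in the count files, and all 9 of 9 passed the filter on low counts that left 15339 genes to be tested. PolyA RNA was sequenced from innate lymphoid cells of group 2 (ILC2) and of group 3 (ILC3) of the small intestine of female mice, at zeitgeber time (ZT, hours counted from lights-on) 4, 10, 16 and 23. Each cell type and time had 2 libraries, except ILC2 at ZT16 with 1, which made 7 ILC2 and 8 ILC3 libraries. Per the labels, cells of 6 mice per time were pooled before staining and sorting, no treatment or mutant allele is named for any group, and strain, age and sorting gates are not given there. The labels put all ILC2 libraries in batch 1 and all ILC3 libraries in batch 2, so cell type and batch cannot be told apart in any comparison below. The labels do not say whether the libraries of 1 time came from the same pool or from separate pools, so p-values measure only the spread between libraries, which may be technical.

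Ligands of the TNF superfamily are trimeric proteins, most of them held in the cell membrane, that signal to neighbouring cells through receptors of the TNF receptor superfamily, TRAF adaptors and NF-kB. Lymphotoxin alpha joins lymphotoxin beta in a membrane complex that acts on the lymphotoxin beta receptor, and together with RANKL, the product of Tnfsf11, it drives the formation of lymph nodes and gut lymphoid follicles by lymphoid tissue inducer cells, which belong to the group 3 lineage. Other ligands of the family, among them OX40L (Tnfsf4), CD30L (Tnfsf8), LIGHT (Tnfsf14) and CD40L (Cd40lg), are best known as costimulatory signals between lymphocytes and antigen-presenting cells.

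Ltb, Tnf and Lta lie next to each other on chromosome 17 (build GRCm38.p6, the same build as mm10). Ltb is on the plus strand at chr17:35194507-35196305. Tnf begins 3.06 kb further on the minus strand at chr17:35199367-35202007, and Lta follows after another 1.16 kb, also on the minus strand, at chr17:35203165-35205578. No protein-coding gene overlaps any of the 9 genes, and of other genes Mir6974 lies within Lta and Mir6973a within Ltb, each on the same strand. Promoter letters from RefSeq (GRCm38.p6) were matched for 7 of the 9 genes, not for Tnfsf4 and Cd40lg. Below are 4 of them, shown because they stand for a ligand that did not pass the test between cell types (Ltb), ligands higher in ILC3 (Tnf, Tnfsf11) and a ligand lower in ILC3 (Tnfsf14). Each is written 5′ to 3′ on the strand of its gene and holds the 250 bases before the start or, for Ltb, the first 182 of them, which lie outside annotated transcripts. Capitals mark the letters TATAAA in Tnf (bases -29 to -24 before the start) and, on the opposite strand, in Tnfsf11 (-32 to -27), the letters TGANTCA of the AP-1 motif in Tnfsf14 (-160 to -154) and, on the opposite strand, the NF-kB consensus in Ltb (-87 to -78), which overlaps the letters GGAAA.
Ltb, chr17:35194257-35194438, plus strand: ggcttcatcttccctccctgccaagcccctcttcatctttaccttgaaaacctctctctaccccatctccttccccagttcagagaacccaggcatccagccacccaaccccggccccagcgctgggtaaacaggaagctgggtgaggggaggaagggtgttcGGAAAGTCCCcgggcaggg
Tnf, chr17:35202008-35202257, minus strand: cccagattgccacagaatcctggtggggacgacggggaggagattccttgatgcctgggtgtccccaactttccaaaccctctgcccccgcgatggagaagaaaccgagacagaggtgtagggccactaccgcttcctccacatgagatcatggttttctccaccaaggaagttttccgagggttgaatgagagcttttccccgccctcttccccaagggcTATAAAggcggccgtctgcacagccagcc
Tnfsf11, chr14:78308044-78308293, minus strand: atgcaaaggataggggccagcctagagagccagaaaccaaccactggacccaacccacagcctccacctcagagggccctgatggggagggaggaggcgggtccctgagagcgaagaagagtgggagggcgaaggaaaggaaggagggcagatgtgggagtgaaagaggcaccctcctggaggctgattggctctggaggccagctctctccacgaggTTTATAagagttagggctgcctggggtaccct
Tnfsf14, chr17:57194182-57194431, minus strand: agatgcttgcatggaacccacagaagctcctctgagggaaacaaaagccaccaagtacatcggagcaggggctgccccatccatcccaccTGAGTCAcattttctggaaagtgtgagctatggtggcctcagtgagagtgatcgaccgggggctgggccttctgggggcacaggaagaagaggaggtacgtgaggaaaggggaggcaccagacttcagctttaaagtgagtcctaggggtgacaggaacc

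Over both strands of the same 250-base window, 3.9% of 32851 RefSeq promoters held the NF-kB consensus, 6.75% TGANTCA and 12.4% TATAAA. Ltb was the single member with the NF-kB consensus, Tnfsf14 the single member with TGANTCA, and TATAAA was found in Tnf, Tnfsf11 and Lta (at -167 to -162). All 7 matched promoters held GGAAA, the NFAT core, which 55.6% of promoters hold. For Lta and Tnfsf8 only 23 and 26 of the 250 bases lie outside annotated transcripts. The TATAAA of Lta and the GGAAA of both genes lie within annotated transcripts. None of the 7 held CACGTG, the E-box bound by clock proteins (6.02% of promoters), GATAA (22.6%), TGTGGT of Runx factors (14%) or TGACGTCA (1.55%). A match is a description of these letters, not of binding.

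Library totals ranged from 4016298 to 18538315 counts in ILC2 and from 5903163 to 24794403 in ILC3. All 7 ILC2 marker genes of the list used (Gata3, Il1rl1, Il5, Il13, Klrg1, Areg, Il17rb) were lower in ILC3, and the ILC3 marker genes Il22, Il23r, Ccr6, Ncr1, Il1r1 and Cxcr5 were higher. Markers of other cells were present in both sorts, and no marker on any list that the files hold was at 0 over a whole cell type. Summed levels, in CPM (counts scaled to a common library size), were 18807 to 192141 in ILC2 and 400.2 to 4349 in ILC3 for plasma and B cell genes (8 of 11 in the files), 1314 to 2267 and 691 to 3410 for T cell genes, 136 to 352 and 619 to 4054 for NK cell genes, 776 to 2354 and 1740 to 4240 for myeloid genes, 143 to 623 and 1463 to 3667 for mast cell genes, and 52.5 to 339 and 128 to 2326 for epithelial genes. Genes of a list did not all go the same way. Of 6 NK cell genes, 4 were higher in ILC3 and 1 was lower, Prf1 (62.3 CPM on average in ILC2, 17.1 in ILC3). Gzma and Gzmb, at 1660 and 674 CPM in ILC3, made up most of the NK sum there, and Ncr1 is on the ILC3 list too. Of 10 myeloid genes, 6 were higher and 1 was lower, Siglech (298 and 2.38). All 5 mast cell genes were higher in ILC3, and Kit (159.8 and 758 CPM) was a large part of that sum in ILC3. In bulk RNA, fewer cells of a type and less RNA per cell cannot be told apart.

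Between the cell types, 5 of the 9 ligands were higher in ILC3 (Lta, Tnf, Tnfsf4, Tnfsf8 and Tnfsf11), 2 were lower (Tnfsf14 and Cd40lg) and 2 did not pass the test (Ltb and Tnfsf10). The test was edgeR's quasi-likelihood F-test that sets the mean over the ILC3 times against the mean over the ILC2 times, with Benjamini-Hochberg adjustment over all genes tested and a threshold of 0.05. It called 27.1% of all genes, 15.1% higher and 12.0% lower in ILC3 (2318 and 1839 genes, or 2981 and 1315 when scaled by library size only, which moved the median log2 fold change of all genes from 0.11 to 0.26 and changed no call or direction of the 9 ligands). The median log2 fold change of the 9 ligands was 0.98, against that 0.11 over all genes tested. For Lta, Tnfsf8, Tnfsf14 and Cd40lg no ILC3 library overlapped any ILC2 library, which held for 12.1% of all genes. The folds of all 9 ligands with their intervals are in the plot of fold changes.

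**Figure D1:**
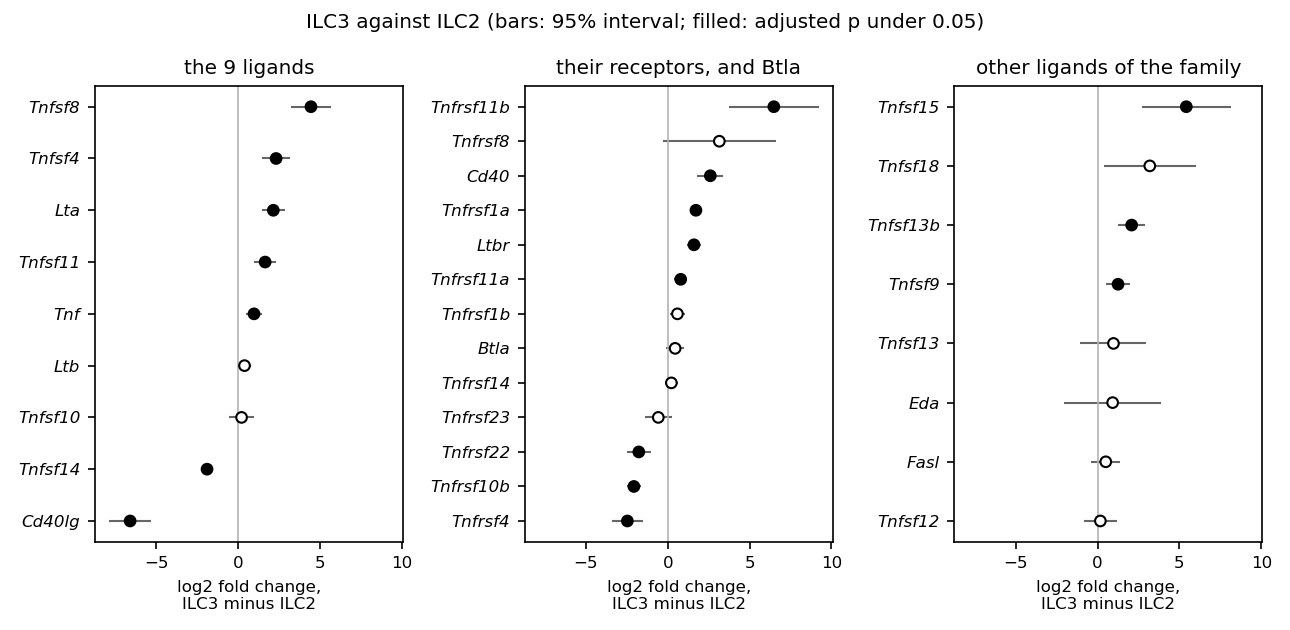
Log2 fold change of ILC3 minus ILC2 (horizontal axis) for the 9 ligands, the 12 receptors that bind them with Btla, which binds the receptor HVEM, and the 8 other ligands of the family that could be tested. Points are edgeR estimates, bars 95% intervals, and filled points passed an adjusted p of 0.05; among the 9 ligands the values run from -6.59 for Cd40lg to 4.46 for Tnfsf8. The points of Tnfrsf11b, Tnfrsf8 and Tnfsf15, with at most 3 counts in ILC2, depend on the prior count of the fit.

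Lta encodes lymphotoxin alpha, the subunit that every lymphotoxin trimer needs. Its level in the 7 ILC2 libraries was 2.05 CPM at the lowest, 5.47 at the median and 9.34 at the highest, and in the 8 ILC3 libraries 13.2, 28.4 and 35.9 CPM. The lowest ILC3 library was above the highest ILC2 library. The means were 5.71 ± 2.31 CPM (SD, n = 7) and 26.3 ± 8.48 CPM (SD, n = 8), a log2 fold change of 2.16 ± 0.32 (SE; edgeR adjusted p = 3.42e-04). Ltb encodes lymphotoxin beta, the membrane anchor of the complex. It ranged from 187 to 358 CPM in ILC2 (median 279) and from 225 to 520.3 CPM in ILC3 (median 355). The ranges overlapped, and the log2 difference of 0.40 had a 95% interval from -0.02 to 0.82 (edgeR adjusted p = 0.153). The interval of Lta, from 1.46 to 2.86, lay above it.

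The ratio of the lymphotoxin genes differed between the cell types. Per length, in CPM per kilobase of gene length (RPKM), Ltb over Lta was 43.4 at the lowest, 61.4 at the median and 115 at the highest in ILC2, and 13.7, 17.1 and 29.6 in ILC3. The ranges did not overlap. The log2 ratio differed by -1.84 (ILC3 minus ILC2), with a two-sided exact permutation p of 3.11e-04 (n = 7 and 8; 6.22e-04 adjusted over the 4 ratios tested), the smallest these libraries can give. LIGHT and the lymphotoxin complex share the lymphotoxin beta receptor, and Tnfsf14 over Lta had a median of 12.2 in ILC2 (10.6 to 26) and 0.722 in ILC3 (0.501 to 1.31). That log2 difference was -4.15, with the same smallest exact permutation p of 3.11e-04. These ratios, with Ltb over Tnfsf11 and Tnfsf11 over Tnfrsf11a below, were taken from the same members as the fold changes and add no separate evidence of them.

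Tnf encodes the inflammatory cytokine TNF, which cells shed from their surface. It ranged from 14 to 47.8 CPM in ILC2 (median 21.8) and from 17.8 to 60.5 CPM in ILC3 (median 47.6). The ranges overlapped through the highest ILC2 library, ZT4 replicate 1, and the lowest ILC3 library, ZT23 replicate 2. The log2 fold change was 0.98 ± 0.23 (SE; edgeR adjusted p = 0.00795), between means of 23.7 ± 11.2 CPM (SD, n = 7) and 44.2 ± 13.9 CPM (SD, n = 8). The genes on either side of the 3-gene locus were Lst1, beyond Ltb, with a log2 fold change of 2.07 ± 0.40 (edgeR adjusted p = 0.00234), and Nfkbil1, beyond Lta, with 0.06 ± 0.16 (adjusted p = 0.837). Along the locus, from Lst1 through Ltb, Tnf and Lta to Nfkbil1, the fold changes were 2.07, 0.40, 0.98, 2.16 and 0.06. Lst1 was low, at 2.51 ± 1.36 CPM in ILC2 (SD, n = 7) and 10.2 ± 2.13 in ILC3 (SD, n = 8). A shift of the region as a whole was not tested.

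Tnfsf11 encodes RANKL, which induces lymph node anlagen, microfold cells over gut follicles and, in bone, osteoclasts. The ILC2 libraries held 384 and 159 CPM (ZT4), 223 and 261 (ZT10), 128 (ZT16), 106 and 213 (ZT23). The ILC3 libraries held 1515 and 499 CPM (ZT4), 987 and 639 (ZT10), 441 and 239 (ZT16), 469 and 504 (ZT23). Of the ILC3 libraries, 7 were above every ILC2 library, and ZT16 replicate 2 was not. The log2 fold change was 1.66 ± 0.31 (SE; edgeR adjusted p = 0.00159). The library of ILC3 ZT4 replicate 1 was the highest of all for Tnfsf11, and without it the fold change still passed, as it did without each of the other libraries in turn (1.41 to 1.84). Ltb over Tnfsf11 per length had a median of 2.8 in ILC2 (1.76 to 4.46) and 1.37 in ILC3 (0.387 to 2.98), a log2 difference of -1.16 (exact permutation p = 0.00808, adjusted 0.0108, n = 7 and 8).

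Tnfsf8 and Tnfsf4, which encode CD30L and OX40L, were both low in ILC2 and higher in ILC3. Tnfsf8 had 78 counts over all ILC2 libraries, 0 CPM at the lowest, 0.975 at the median and 1.82 at the highest, against 11.2, 17.8 and 31.2 CPM in ILC3. The groups did not overlap, and the log2 fold change of 4.46 ± 0.57 (SE; edgeR adjusted p = 1.12e-04) was the highest of the 9. Without ILC2 ZT4 replicate 2, which left 0 counts in that group, the Tnfsf8 value was 6.03, a fitted value that depends on the prior count. Tnfsf4 ranged from 0.231 to 3.54 CPM in ILC2 (median 2.24) and from 3.48 to 22.1 CPM in ILC3 (median 6.24). Only the highest ILC2 library, ZT23 replicate 2, reached the lowest ILC3 library. The log2 fold change of Tnfsf4 was 2.33 ± 0.40 (SE; edgeR adjusted p = 9.12e-04). The ILC2 ZT16 library, with 3 counts of Tnfsf4, moved this value: without it the fold change was 1.48 (edgeR adjusted p = 0.00991).

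Tnfsf14 encodes LIGHT, a ligand of both the lymphotoxin beta receptor and HVEM (Tnfrsf14). Its levels were 111 and 92.8 CPM (ZT4), 86.2 and 105 (ZT10), 92.5 (ZT16), 71.7 and 133 (ZT23) in ILC2. In ILC3 they were 37.2 and 24 CPM (ZT4), 22.4 and 27.7 (ZT10), 36.5 and 28.4 (ZT16), 24.1 and 15.3 (ZT23). Every ILC2 library was above every ILC3 library. The log2 fold change was -1.89 ± 0.18 (SE; edgeR adjusted p = 1.20e-05).

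Cd40lg encodes CD40L, the signal by which helper lymphocytes activate B cells and dendritic cells through CD40. The ILC2 libraries held 77.4 and 37.8 CPM (ZT4), 27.3 and 56.4 (ZT10), 20.1 (ZT16), 4.35 and 23.6 (ZT23). The ILC3 libraries held from 0 to 1.22 CPM (median 0.191), 68 counts in all against 2782 in ILC2. The groups did not overlap, and the log2 fold change of -6.59 ± 0.60 (SE; edgeR adjusted p = 8.65e-06) was the lowest of the 9. Its neighbour Arhgef6, 7.44 kb away, had a log2 fold change of -0.89 ± 0.16 (adjusted p = 0.00132). Since helper T cells express Cd40lg, T cell markers are given beside it. Of 14 T cell genes, 7 were lower in ILC3, among them Cd28 (263 CPM on average in ILC2, 12 in ILC3) and Cd8b1 (89.3 and 1.36). Another 4 were higher, Cd3e (64.7 and 262), Cd3d, Cd3g and Cd8a. Cd4 (106 and 99.4 CPM, edgeR adjusted p = 0.804) and Trac (62.2 and 43, adjusted p = 0.455) did not pass, nor did Cd247 (adjusted p = 0.0584). Cd4 did not follow the other T cell genes in every library. Among ILC3 libraries it was highest, at 153 CPM, in ZT4 replicate 1, where Cd3e (28.6) and Trac (8.19) were lowest. Among ILC2 libraries Cd4 (143) and Trac (125) were both highest in ZT4 replicate 1. The part of T cells in the Cd40lg difference was not tested.

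Tnfsf10 encodes TRAIL, which triggers apoptosis through death receptors. The ILC2 libraries held 71.4 and 92.7 CPM (ZT4), 77.8 and 126 (ZT10), 122 (ZT16), 73.7 and 107 (ZT23). The ILC3 libraries held 25.5 and 155 CPM (ZT4), 86.3 and 134 (ZT10), 123 and 154 (ZT16), 189 and 57.5 (ZT23). The ILC3 values spanned the whole range of the ILC2 values. The log2 difference was 0.22 with a 95% interval from -0.55 to 0.99 (edgeR adjusted p = 0.701), and it turned to -0.24 without ILC3 ZT4 replicate 2 and to -0.05 without ILC3 ZT23 replicate 1.

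**Figure D2:**
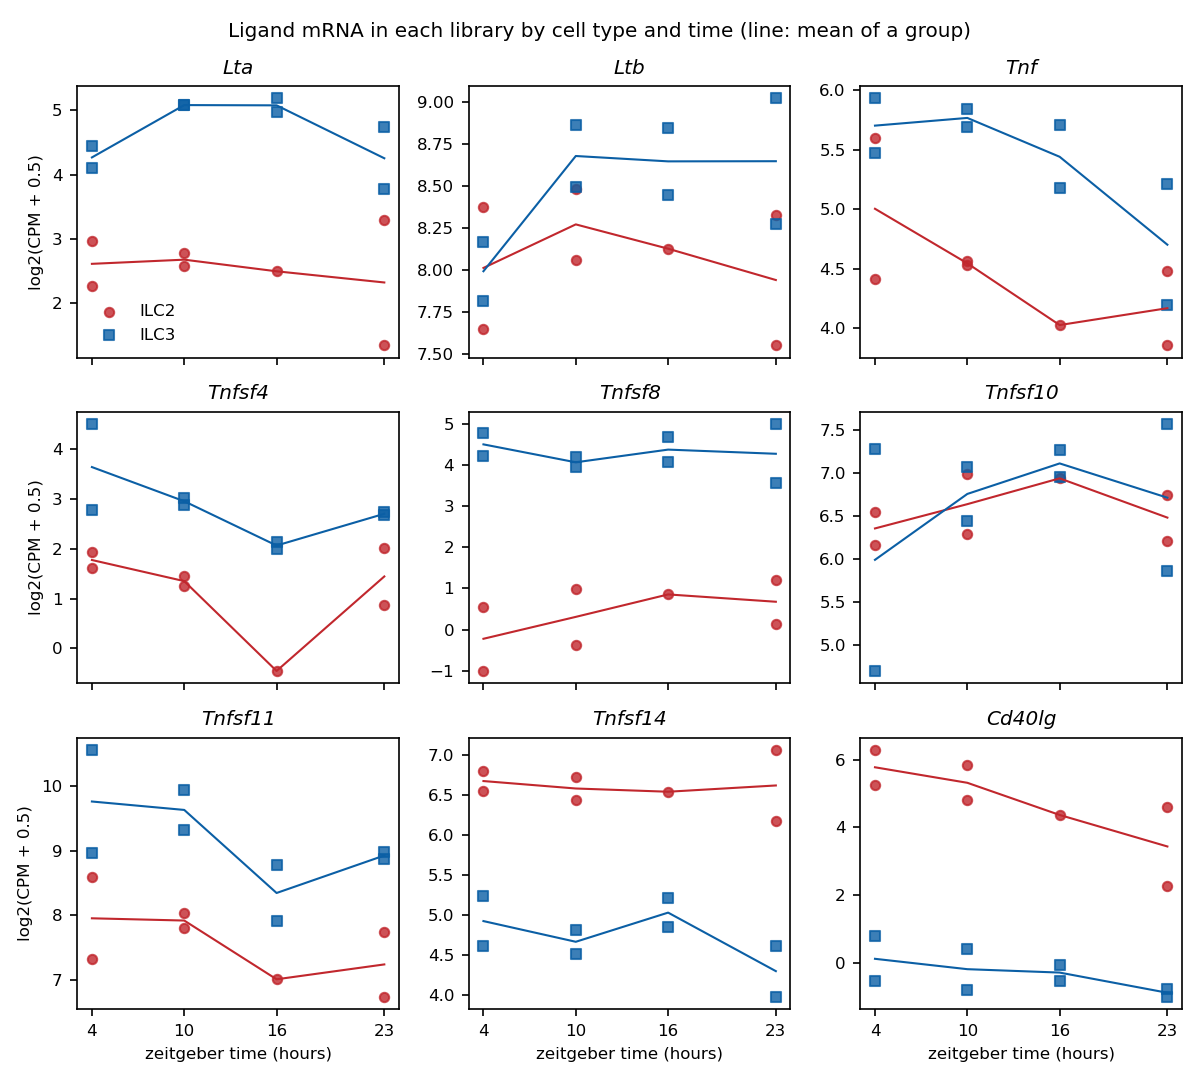
Level of each of the 9 ligands in every library, as log2(CPM + 0.5), by zeitgeber time in hours; circles are ILC2 and squares ILC3, lines join the group means, and the vertical scale differs between panels. The symbols of the cell types lie fully apart for Lta, Tnfsf8, Tnfsf14 and Cd40lg and intermingle for Ltb and Tnfsf10.

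Per length, Ltb was the most abundant of the 9 mRNAs in all 7 ILC2 libraries, with a median of 255 RPKM, followed by Tnfsf11 with 95.2, Tnfsf14 with 49.9, Cd40lg with 21.9, Tnfsf10 with 18.8, Tnf with 13.5, Lta with 3.95, Tnfsf4 with 1.39 and Tnfsf8 with 0.437 RPKM. The ranges of neighbours in this order overlapped, except those of Tnf and Lta. In ILC3 the order was Ltb with a median of 324 RPKM, Tnfsf11 with 224, Tnf with 29.4, Tnfsf10 with 26, Lta with 20.6, Tnfsf14 with 13.9, Tnfsf8 with 8.01, Tnfsf4 with 3.88 and Cd40lg with 0.153. There the ranges of Tnfsf11 and Tnf, and those of Tnfsf4 and Cd40lg, did not overlap. Of the summed level of the 9 ligands, Ltb made up 55.3% at the median in ILC2 (46.8 to 61.2%) and 51.2% in ILC3 (25.1 to 60.1%), while Tnfsf11 made up 19.2% (13.7 to 26.6%) and 37.7% (20.2 to 64.9%). Ltb was below Tnfsf11 in 3 of the 8 ILC3 libraries, at ZT4 and ZT10. The share of Tnfsf14 went from a median of 11.9% in ILC2 to 1.87% in ILC3, and that of Cd40lg from 4.9% to 0.022%.

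**Figure D3:**
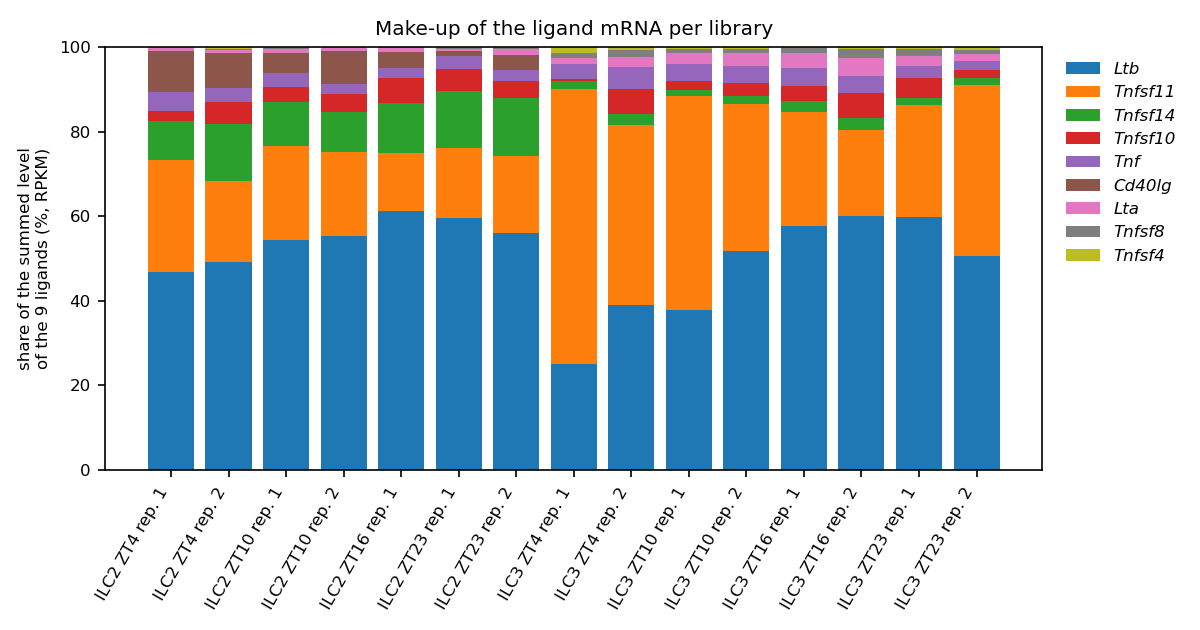
Share of each ligand in the summed level of the 9, in percent of RPKM, for each library (bars; rep. is the replicate). Ltb and Tnfsf11 fill most of every bar, Tnfsf14 and Cd40lg are wider in ILC2, and Tnfsf11 reaches 64.9% in ILC3 ZT4 replicate 1.

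By its title the series follows the circadian day, and the F-test over the 4 times was run in each cell type. No ligand passed it: edgeR called 0% of the 15339 genes over time in ILC2, 0% in ILC3 and 0% for the interaction of time with cell type. At an unadjusted p under 0.05 there were 516 genes in ILC2 (3.36%), 669 in ILC3 (4.36%) and 307 for the interaction, and DESeq2 called 24, 23 and 2 genes. No ligand was among them, but in ILC3 DESeq2 gave adjusted p-values for 4336 genes, and Lta, Tnf, Tnfsf4, Tnfsf8 and Cd40lg had none there. The single ligand with an unadjusted edgeR p under 0.05 was Tnfsf4 in ILC2, with a p of 0.0333 (adjusted p = 1). Tnfsf4 was at 2.94 ± 0.551 CPM at ZT4, 2.05 ± 0.262 at ZT10 and 2.43 ± 1.56 at ZT23 (SD, n = 2 each), and at 0.231 CPM in the single ZT16 library, from 3 counts. With that library left out the edgeR p was 0.728. In ILC3 the same gene was at 14.2 ± 11.2, 7.25 ± 0.514, 3.68 ± 0.288 and 6 ± 0.196 CPM in the order of the times (SD, n = 2 each; edgeR unadjusted p = 0.0626, adjusted p = 0.965).

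Tnfsf11 in ILC3 had the lowest p over time of the 9 ligands there, 0.0587 (edgeR, unadjusted; adjusted p = 0.965). Its group means were 1007 ± 718 CPM at ZT4, 813 ± 246 at ZT10, 339.8 ± 143 at ZT16 and 486 ± 25.2 at ZT23 (SD, n = 2 each). Both ZT10 libraries were above all ZT16 and ZT23 libraries, but of the ZT4 pair replicate 2, at 499 CPM, lay between the ZT23 values. Without that library the p was 0.0076 (edgeR, unadjusted; adjusted 0.217), and without ZT16 replicate 2 it was 0.238. Lta in ILC3 was at 18.9 ± 3.22 CPM at ZT4, 33.3 ± 0.221 at ZT10, 33.4 ± 3.64 at ZT16 and 19.6 ± 9.12 at ZT23 (SD, n = 2 each; edgeR unadjusted p = 0.288). Cd40lg in ILC2 had means of 57.6 ± 27.9, 41.9 ± 20.5 and 14 ± 13.6 CPM at ZT4, ZT10 and ZT23 (SD, n = 2 each) and 20.1 CPM at ZT16 (edgeR unadjusted p = 0.159). With 1 or 2 libraries a time, the spread within a time was as wide as many of these differences. A p that misses the threshold does not show that the levels stayed the same over the day.

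Libraries of the same cell type differed in several ligands at once. ILC2 ZT23 replicate 1 was the lowest ILC2 library for 6 of the 9 ligands (Lta, Ltb, Tnf, Tnfsf11, Tnfsf14 and Cd40lg). The same library had the highest Jchain level, a plasma cell gene, at 188364 CPM, and the lowest level of the ILC2 gene Gata3, at 302 CPM. ILC3 ZT4 replicate 1 was the highest ILC3 library for 4 ligands (Tnf at 60.5, Tnfsf4 at 22.1, Tnfsf11 at 1515 and Tnfsf14 at 37.2 CPM) and the lowest for Tnfsf10, at 25.5 CPM. In that library the ILC3 marker genes summed to 2596 CPM, the highest of the 8, Il22 stood at 1583 CPM, and the T cell genes summed to 691 CPM, the NK cell genes to 619 CPM and the mast cell genes to 1463 CPM, each the lowest of the 8. Its myeloid genes summed to 4240 CPM, the highest of the 8, with 2493 CPM in the next. The mast cell gene Cpa3 was not low in that library, at 122 CPM against an ILC3 median of 114. ILC3 ZT23 replicate 2 was the lowest for 5 ligands (Lta, Tnf, Tnfsf8, Tnfsf14 and Cd40lg) and had the highest sums of epithelial (2326 CPM) and plasma and B cell (4349 CPM) genes. The part of the cell make-up in these values was not tested, and all 7 ligands called between the cell types were called without any 1 of these libraries.

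Every pair of ligands was correlated over log2(CPM + 0.5) within each cell type, 72 comparisons in all, and 1 pair passed adjustment. In the 7 ILC2 libraries Tnf and Tnfsf11 had a Pearson r of 0.94 (exact permutation p = 1.98e-04, adjusted 0.0143) and a Spearman rho of 1.00 (exact permutation p = 3.97e-04, adjusted 0.0286). Without the 2 libraries farthest from the median of Tnf, r was 0.91. In ILC3 the same pair had r = 0.50 and rho = 0.60 (n = 8; exact permutation p = 0.213 and 0.132, adjusted 0.614 and 0.616), and the difference between the cell types was not tested. Tnfsf4 and Tnfsf11 in ILC3 had r = 0.86 and rho = 0.88 (n = 8; exact permutation p = 0.00933 and 0.00724, adjusted 0.168 and 0.221), which failed the adjustment, as did Tnfsf10 and Tnfsf11 with r = -0.74 and rho = -0.64 (exact permutation p = 0.038 and 0.0962, adjusted 0.317 and 0.533). Both values of a point come from 1 library and share its depth and cell make-up.

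The genes most like each ligand over all 15 libraries, by Pearson r of log2(CPM + 0.5) among 9435 genes, are given as a description. The 15 libraries share the difference between cell types and batches. Lta was most like Ffar2, the receptor for short-chain fatty acids (r = 0.978), then Ppp2r1b and Apobr. Tnfsf11 was most like Il17f, an ILC3 cytokine (0.964), then Gcnt2 and the interferon gamma receptor gene Ifngr1. Tnfsf8 was most like Adgrg3 (0.979), then Prr29 and Abca3. Tnfsf14 was most like Enpp4 (0.978), then Scel and the integrin gene Itgb3. Cd40lg was most like Tmem273 (0.975), then Nprl3 and the T cell surface gene Cd6 (0.969). Tnf was most like Sla (0.938), then the interleukin receptor gene Il2rb and the AP-1 gene Junb. Tnfsf4 was most like Zfp667 (0.919), then Nif3l1 and Slc29a1, and the genes most like Ltb included Slc11a2 (0.858) and Hnrnpm (0.846). Tnfsf10 was most like Trgj1 (0.915), then Sh2d3c and Trgc4 (0.907). Trgj1 and Trgc4 are segments of the T cell receptor gamma locus.

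Within the 8 ILC3 libraries alone, where the cell type difference plays no part and 9019 genes were compared, Tnfsf11 was most like Cwc25 (r = 0.984), then Il17f (0.976) and Plk4. Il17f stood at 103 CPM in ZT4 replicate 1, 41 in ZT10 replicate 1 and from 6.39 to 21.4 in the other ILC3 libraries. Tnf was most like Nfatc1 (0.997), an NFAT transcription factor gene, then Cdk19 and Ago2. Lta was most like Sema4f (0.976), then Ehmt2 and Ptger2, and Ltb like Cand2 (0.936), then Cmc2 and Tti2. Tnfsf8 was most like Epsti1 (0.931), then Borcs6 and Nudt9, and Tnfsf14 like Lrrc25 (0.968), then Ltb4r1 and Daglb. Tnfsf10 was most like Gfi1 (0.996), Adrb1 (0.995) and Trac (0.993), the constant part of the T cell receptor alpha chain. Trac was lowest, at 8.19 CPM, in the ILC3 library with the lowest Tnfsf10 and highest, at 78.8 CPM, in the one with the highest Tnfsf10. The part of T cells in Tnfsf10 was not tested.

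**Figure D4:**
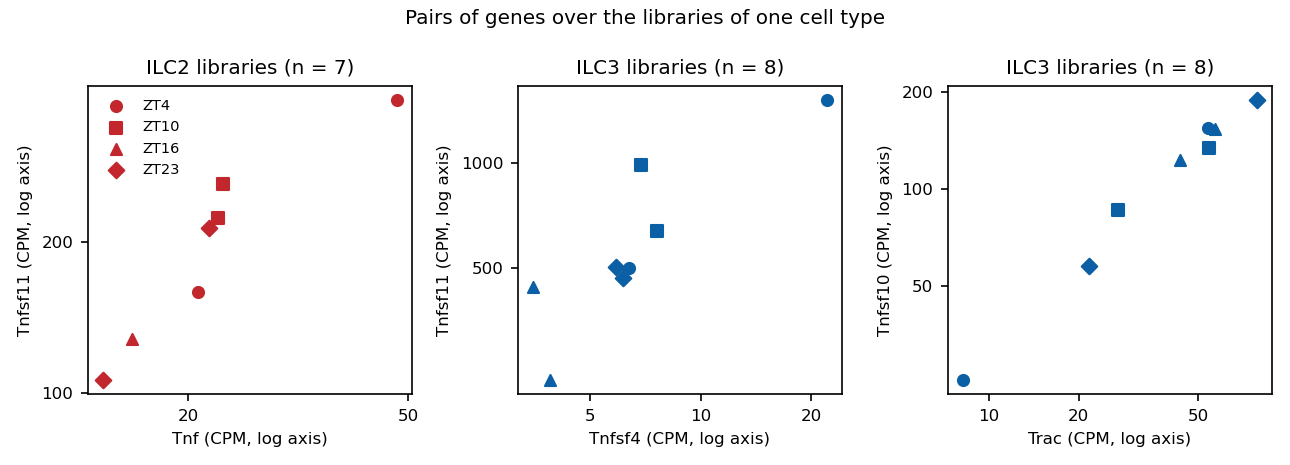
Levels in CPM on log axes in single libraries, with symbols for the zeitgeber time: Tnfsf11 against Tnf in 7 ILC2 libraries, Tnfsf11 against Tnfsf4 in 8 ILC3 libraries, and Tnfsf10 against Trac in 8 ILC3 libraries. In the left panel both genes put the libraries in the same order (rho of 1.00), in the middle panel ILC3 ZT4 replicate 1 stands alone at 22.1 and 1515 CPM, and in the right panel the same library is lowest at 8.19 and 25.5 CPM.

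Of the 12 receptors that bind these ligands, 5 were higher in ILC3, 3 were lower and 4 did not pass the test. Their median log2 fold change was 0.69, which is the same with Tnfrsf11b at its lower bound. Over all genes tested, 15.1% were higher and 12.0% lower, with a median of 0.11. The receptors of lymphotoxin and TNF were higher: Ltbr at 50 ± 11.4 CPM (SD, n = 8) against 18.1 ± 6.96 (SD, n = 7), with a log2 fold change of 1.60 ± 0.21 (SE; edgeR adjusted p = 1.28e-04), and Tnfrsf1a, the first TNF receptor, at 186 ± 67.4 against 57.6 ± 12.9 CPM, with 1.72 ± 0.17 (adjusted p = 1.40e-05). The second TNF receptor, Tnfrsf1b, did not pass (0.59, 95% interval 0.12 to 1.07; adjusted p = 0.0629). Tnfrsf11a, which encodes the RANKL receptor RANK, was at 25 ± 5.6 CPM in ILC3 and 14.1 ± 2.85 in ILC2 (0.79 ± 0.19; adjusted p = 0.00744). Tnfrsf11b, the secreted decoy receptor osteoprotegerin, had 109 counts in ILC3 and 0 in ILC2, and was at least 18.2-fold higher in ILC3, taking 3 counts over all ILC2 libraries as the floor. Per length, Tnfsf11 over Tnfrsf11a had a median of 30.6 in ILC2 (18.7 to 54.6) and 56.8 in ILC3 (18.2 to 159), a log2 difference of 0.74 that did not pass (exact permutation p and adjusted p = 0.0774, n = 7 and 8).

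For the costimulatory pairs, receptor and ligand did not always differ in the same direction. Cd40 was higher in ILC3 (29.3 ± 21.9 CPM, SD, n = 8, against 5.86 ± 3.83, n = 7; log2 fold change 2.60 ± 0.37, edgeR adjusted p = 2.23e-04), while its ligand Cd40lg was lower. B cells and myeloid cells also express Cd40, and the summed levels of their markers are given above; their part was not tested. Tnfrsf4, which encodes OX40, was lower in ILC3 (0.873 ± 0.527 against 4.7 ± 2.69 CPM; -2.47 ± 0.43, edgeR adjusted p = 0.00111), while its ligand Tnfsf4 was higher. Tnfrsf8, the CD30L receptor, had 3 counts in ILC2 and 30 in ILC3, and did not pass edgeR's test (adjusted p = 0.165). The depth-scaled ratio of these counts was 5.01 with a 95% counting interval from 1.56 to 25.7. The ratio of mean CPM was only 2.05 (0.0788 in ILC2, 0.162 in ILC3). Tnfrsf14, which encodes the LIGHT receptor HVEM, was at 16.8 ± 3.59 CPM in ILC2 and 19.3 ± 4.02 in ILC3 (0.22, 95% interval -0.19 to 0.62; adjusted p = 0.438), and Btla, itself a receptor that binds HVEM and none of the 9 ligands, did not pass either (0.45, -0.10 to 1.00). The TRAIL death receptor Tnfrsf10b was lower in ILC3, 7.55 ± 1.82 against 32.6 ± 7.97 CPM (-2.07 ± 0.20, adjusted p = 1.27e-05), with no overlap of the libraries. Of the mouse TRAIL decoy receptors, Tnfrsf22 was lower (-1.77 ± 0.34, adjusted p = 0.0019) and Tnfrsf23 did not pass (-0.58, 95% interval -1.39 to 0.24).

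Among the 9 other ligands of the family, 8 could be tested, with a median log2 fold change of 1.11. Beside the 15.1% higher and 12.0% lower among all genes tested, 3 of these ligands were higher in ILC3 and none was lower. They were Tnfsf13b, the B cell survival factor BAFF (2.08 ± 0.38, SE; edgeR adjusted p = 0.00145), Tnfsf9, the 4-1BB ligand (1.25 ± 0.34, adjusted p = 0.017), and Tnfsf15, which had 2 counts in ILC2 and 101 in ILC3. The depth-scaled ratio for Tnfsf15 was 25.3 with a 95% counting interval from 6.83 to 212. Tnfsf15 lies 86.1 kb from Tnfsf8, also higher in ILC3, on chromosome 4. Tnfsf18, the GITR ligand, did not pass at levels below 1 CPM (adjusted p = 0.0885), nor did Fasl, the ligand of the death receptor Fas (0.50, 95% interval -0.39 to 1.39). Of 15 other receptors of the family, 13 could be tested, 3 were higher in ILC3 and 6 lower (median log2 fold change -0.99), with the 4 lowest p-values for Tnfrsf17 (-5.30), Tnfrsf21 (2.24), Tnfrsf13b (-2.86) and Tnfrsf18 (-1.67). Tnfrsf17 and Tnfrsf13b, the receptors BCMA and TACI of plasma and B cells, were lower in ILC3 beside the plasma and B cell sums given above. Tnfrsf17 is itself in those sums, which are mostly Jchain (78584 CPM on average in ILC2, 1433 in ILC3). The part of such cells was not tested.

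Of 29 TRAF, NF-kB and death domain genes downstream of the receptors, 5 were higher in ILC3, 3 were lower and 21 did not pass. The 8 called of 29 were close to the 27.1% called over all genes tested. Their median log2 fold change of 0.06 was close to the 0.11 of all genes. Map3k14, which encodes the kinase NIK of the NF-kB branch used by the lymphotoxin beta receptor and RANK, was higher, at 169.7 ± 77.5 CPM (SD, n = 8) against 60.5 ± 10.2 (SD, n = 7), with 1.46 ± 0.20 (SE; edgeR adjusted p = 1.73e-04). Relb, a transcription factor of that branch, was also called higher (0.55, adjusted p = 0.0446), and its partner Nfkb2 did not pass (0.17, 95% interval -0.22 to 0.56). Traf5 was higher (1.18 ± 0.25, adjusted p = 0.00366), as were Rel (0.79) and Tab2 (0.51), and Traf4 was lower (-0.93 ± 0.13, adjusted p = 1.95e-04). Nfkb1 (-0.76) and the inhibitor gene Nfkbia (-0.64) were lower too. Of 5 genes that act in the shedding of TNF and related ligands (median log2 fold change -0.20), the sheddase Adam17 did not pass (0.03, 95% interval -0.23 to 0.30), nor did Adam10 (-0.20, -0.45 to 0.05), while the Adam17 trafficking partners Rhbdf2 (-0.94) and Rhbdf1 (-1.28) were lower and the inhibitor gene Timp3 was higher (2.70 ± 0.40, adjusted p = 3.13e-04). Over time, none of the genes in these 5 lists passed in either cell type.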

How the data were processed

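The authors deposited 1 file of raw read counts per library, with Entrez identifiers and gene lengths. Reads were counted with featureCounts on mm10, per the submitters' processing notes; the aligner and the strand setting are not given in the sources used here. Libraries were TruSeq, from 100 ng of RNA purified by RNeasy Micro, per the labels' protocols. Symbols and positions came from RefSeq (GRCm38.p6).

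Counts were kept by filterByExpr (minimum count 10), scaled by TMM factors and modelled with edgeR 4.0.16 under R 4.3.3 as 8 group means over all 15 libraries (7 residual degrees of freedom), so the single ILC2 ZT16 library is assumed to vary like the rest. Contrasts were the mean of ILC3 minus the mean of ILC2, F-tests over time in each cell type and their interaction, with Benjamini-Hochberg adjustment over 15339 genes. The scripts were tested on simulated data. Replicates differed beyond sampling noise (chi-square per degree of freedom from 22 to 229). CPM used TMM factors, and RPKM divided them by the deposited gene length. Intervals and floors of count ratios cover counting error only.

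The members, the gene lists (other ligands, receptors of the members with Btla, other receptors, TRAF and NF-kB genes, shedding genes, and markers of ILC2, ILC3, T, plasma and B, myeloid, mast, NK and epithelial cells) and the motifs were chosen with earlier results of these data known. Some genes that these lists or the rule below would name are not reported here. Named by rule are all members, every receptor of a member, up to 4 genes of each other list with the lowest p between cell types, and the 3 genes with the highest r to each member; other names (Relb, Nfkb2, Rel, Tab2, Nfkbia, Adam17, Fasl, marker genes, neighbours) were chosen after their values were seen. Alternatives were scaling by library size, DESeq2 1.42.0, no filter, a replicate block, leaving out each library, and removal of immunoglobulin genes with Jchain. That removal took out only 2 genes, as Igkc, Ighm and Igha are not in the count files.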

Additional observations from a re-analysis of the deposited data

Results flagged for a closer look

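Among 18 combinations of ligand and cell type, 2 held a library far from the others by Dixon's criterion, which chance meets in about 1 of 20 such groups. Tnf stood at 47.8 CPM in ILC2 ZT4 replicate 1, and its gap to the next ILC2 library was 0.732 of the whole range (critical value 0.568). Tnfsf4 stood at 22.1 CPM in ILC3 ZT4 replicate 1, with a gap of 0.779 of the range (critical value 0.526). Tnfsf11 was also highest within its cell type in both libraries, at 384 and 1515 CPM. Without the flagged library the log2 fold change between cell types was 1.14 for Tnf and 2.04 for Tnfsf4, and both remained called by edgeR.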

How the results depend on the processing

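All 7 ligands called between cell types by edgeR were called with the same sign under each of 20 alternatives, and Ltb and Tnfsf10 under none. Tnfsf10 ran from -0.24 to 0.41 when single libraries were left out; it reversed to -0.24 without ILC3 ZT4 replicate 2 and to -0.05 without ILC3 ZT23 replicate 1, and the cause was not tested. Leaving out single libraries gave 3270 to 4214 genes between cell types and 0 to 3 over time in ILC3, the 3 without ILC3 ZT23 replicate 1. DESeq2 called 24 genes over time in ILC2, 23 in ILC3 and 2 for the interaction, 0 of them ligands (5 of 9 had no adjusted p in ILC3), and the cause was not tested. Whether the replicate numbers pair the libraries was not settled. Deviations of same-numbered libraries correlated at r from -0.145 to 0.489 over 21 pairs of groups, and 6 exceeded 0.1. With the replicate block, in which the unnumbered ILC2 ZT16 library is left out, 3873 genes and 7 ligands were called between cell types and 0 over time, and Tnfsf4 was at 1.48. Depth limits Tnfsf8 and Tnfsf4 in ILC2 (0 to 33 and 3 to 64 counts per library) and Cd40lg in ILC3 (0 to 28). Cd40lg ran from -7.30 (without ILC3 ZT23 replicate 1) to -6.16. With 1 or 2 pooled libraries per time, changes over the day as wide as the spread within a time could not be detected.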
